A study of Homo sapiens with 30 samples.

Results

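The regions described here carried both repressive histone marks, H3K27me3 and H3K9me3, in control HEK293T cells. A both-mark region was a peak of the H3K27me3 list on chromosomes 1 to 22 of which at least 50% of the length was covered by peaks of the H3K9me3 list, both from cells given the negative control antisense oligonucleotide (ASO), called NC. There were 3563 such regions among 73667 autosomal H3K27me3 peaks, a share of 4.84%, and they spanned 2.41 Mb. They were selected on the values of both NC lists, so the presence of both marks in NC is the rule and not a result.

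HEK293T, a human embryonic kidney line with the SV40 large T antigen, was given ASOs, short nucleic acids that lower the amount of their target RNA, and fixed after 48 h. H3K27me3 was measured by ChIP-seq with the NC ASO, with 1 ASO against the long noncoding RNA (lncRNA) LINC00641 (ΔLINC00641) and with 1 ASO against the lncRNA SETD5-AS1 (ΔSETD5-AS1). H3K9me3 was measured with the NC ASO and with a mix of ASOs against the lncRNA LINC00662 (ΔLINC00662), and every ChIP group had its own input, with 3 replicates a group and 30 samples in all. The number of cells reached by each ASO and the RNA left in them are not in the lists. The replicates of a group were merged before peaks were called, so each group is 1 list, no error between replicates can be given, and no comparison below was tested.

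H3K27me3 is written by the methyltransferases EZH1 and EZH2 of Polycomb repressive complex PRC2 and read by CBX proteins of PRC1. H3K9me3 is written by enzymes such as SETDB1, SUV39H1 and SUV39H2, bound by HP1 proteins, and best known from satellite repeats, retrotransposons and zinc finger gene clusters. Both marks go with silent chromatin, and they usually lie in separate domains. A ChIP-seq peak over both can come from nucleosomes with both marks, from alleles or cells that differ, or from repeat copies whose reads share a single place in the reference, which these pooled lists cannot tell apart.

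The windows of 201 bases around the H3K27me3 summit are shown for the regions in which both peaks were strongest, ranked by the smaller of the −log10 q-values of both peaks. The first 3 stood at no more than 2 times the genome-wide input in both experiments, the fourth is the highest of those at over 5 times outside the REXO1L arrays, and the last, in the aggrecan gene ACAN, was chosen after its values were seen. All are from the plus strand of GRCh37 (hg19). Capitals mark the first unit of a tandem repeat, where shifting the window by 1 unit matched at least 80% of its bases.
chr7:24076-24276, ENSG00000283061: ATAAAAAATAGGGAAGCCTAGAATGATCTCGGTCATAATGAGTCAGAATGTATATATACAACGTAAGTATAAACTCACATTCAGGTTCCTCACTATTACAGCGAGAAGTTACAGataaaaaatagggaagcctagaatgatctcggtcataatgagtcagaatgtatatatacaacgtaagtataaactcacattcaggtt
chr7:106271685-106271885, ENSG00000243797: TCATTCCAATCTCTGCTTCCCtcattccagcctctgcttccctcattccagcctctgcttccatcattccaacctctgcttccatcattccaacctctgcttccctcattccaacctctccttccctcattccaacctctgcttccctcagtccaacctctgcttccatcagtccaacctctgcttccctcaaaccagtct
chr1:112815235-112815435, LINC02884: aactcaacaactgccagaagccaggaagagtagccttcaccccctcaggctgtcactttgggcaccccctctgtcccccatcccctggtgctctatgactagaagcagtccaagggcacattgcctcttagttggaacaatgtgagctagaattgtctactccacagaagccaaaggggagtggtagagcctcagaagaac
chr15:102293282-102293482, ENSG00000291225: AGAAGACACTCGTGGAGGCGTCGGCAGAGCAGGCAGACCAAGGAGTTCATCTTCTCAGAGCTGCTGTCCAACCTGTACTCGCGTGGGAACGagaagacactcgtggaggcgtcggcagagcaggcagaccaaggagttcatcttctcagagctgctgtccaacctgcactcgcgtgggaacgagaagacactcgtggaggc
chr15:89399578-89399778, ACAN: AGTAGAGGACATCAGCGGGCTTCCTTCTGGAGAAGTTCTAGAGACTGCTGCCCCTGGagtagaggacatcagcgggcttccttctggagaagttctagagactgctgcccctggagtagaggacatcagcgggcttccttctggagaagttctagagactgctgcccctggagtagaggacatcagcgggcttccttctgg

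Tandem repeats were found in 4 of these 5 windows. The window in the lncRNA gene ENSG00000283061 repeated a unit of 114 bases with 100% of the bases matched, and the one in an intron of the lncRNA gene ENSG00000243797 a unit of 21 bases with 92.2%. The window in ENSG00000291225, a lncRNA gene over the dynamin pseudogene DNM1P47, had a unit of 91 bases with 99.1%, and the ACAN window, in the coding repeat of a cartilage proteoglycan, a unit of 57 bases with 100%. The window in an intron of LINC02884 held no such repeat, since its best shift matched 34.7% of the bases. Over all both-mark regions, a tandem repeat of 2 to 120 bases in the 301 bases around the summit was found in 37, or 1.04% (Wilson 95% interval 0.754 to 1.43%), against 0.277% of the other autosomal H3K27me3 peaks and 0.538% of the other autosomal H3K9me3 peaks. The strong regions shown are thus not like most members in this respect. The tandem search was chosen after the sequences were seen.

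The fold enrichments of the same regions, the ChIP fragments at the summit over the local input, were read in all 5 lists. The region in ENSG00000283061 near the start of chromosome 7 (chr7:23973-24483) had H3K27me3 fold enrichments of 13.3, 13.2 and 4.67 in NC, ΔLINC00641 and ΔSETD5-AS1, and its H3K9me3 fold enrichment was 7.56 in NC with no peak in ΔLINC00662. It was the highest H3K27me3 value in the plot of both marks, and the ratio in ΔSETD5-AS1 stood apart from the other 2 lists. The H3K27me3 fragments at its summit were 85, 63 and 70 in the same order. The genome-wide level of these lists was 3.85, 3.78 and 4.43 fragments, so the raw counts are not at like depth. The reason for the lower ratio in ΔSETD5-AS1 was not tested. The region in ENSG00000243797 (chr7:106270441-106273919) had H3K27me3 fold enrichments of 7.1, 5.61 and 5.96 in NC, ΔLINC00641 and ΔSETD5-AS1, and H3K9me3 fold enrichments of 6.57 in NC and 2.59 in ΔLINC00662. The region in LINC02884 (chr1:112813750-112815919) had 5.88, 4.44 and 4.38 for H3K27me3 in the same order and 5.48 and 6.69 for H3K9me3. The knockdown ratios were thus below NC for the first mark and above it for the second. The fragments at the summit were 29, 30 and 24 for H3K27me3 and 33 and 30 for H3K9me3. The genome-wide level of the H3K9me3 lists was 4.29 fragments in NC and 3.50 in ΔLINC00662. These raw counts therefore carry the depth of each list, and what moved the ratios was not tested. Of the 10 highest regions with low input, 10 had an H3K27me3 peak in each knockdown and 9 an H3K9me3 peak in ΔLINC00662. In the strongest of 10 groups by −log10 q, 85.0% and 89.4% of the both-mark regions had an H3K27me3 peak in ΔLINC00641 and ΔSETD5-AS1. So did 90.7% and 91.2% of the other autosomal H3K27me3 peaks in that group.

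Most members were weak and short in both lists. The median region was 506 bp long (10th to 90th percentile 301 to 1174 bp), against 517 bp for the other autosomal H3K27me3 peaks. Its median H3K27me3 fold enrichment was 3.23, from a median of 19 fragments at the summit, and the H3K9me3 peak with the most overlap had a median fold enrichment of 3.21 from 22 fragments. The median region was covered by H3K9me3 over 80.1% of its length, 862 regions were covered in full, and 96.2% met a single H3K9me3 peak. The summits of both peaks lay a median of 134 bp apart and within 200 bp of each other in 62.5% of the regions. Seen from the other mark, 3615 autosomal H3K9me3 peaks touched a both-mark region, 4.79% of 75538, and 78.3% of those were themselves covered by H3K27me3 over at least 50% of their length.

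The sizes of both enrichments hardly moved together over the members. Spearman's rho between the H3K27me3 and the H3K9me3 fold enrichment was 0.026 over 3563 regions, while rho between the local inputs of both experiments was 0.40. These are descriptions over regions that share libraries, and the inputs share the genome they were read on. The H3K27me3 summit stood at over 5 times the genome-wide input in 167 regions, or 4.69% (4.04 to 5.43%), against 0.151% of the other autosomal H3K27me3 peaks. Input can be high where several genomic copies are read at a single place or where copy number is raised. Copy number in these cells was not measured, and the cause of the high input was not tested.

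**Figure D1:**
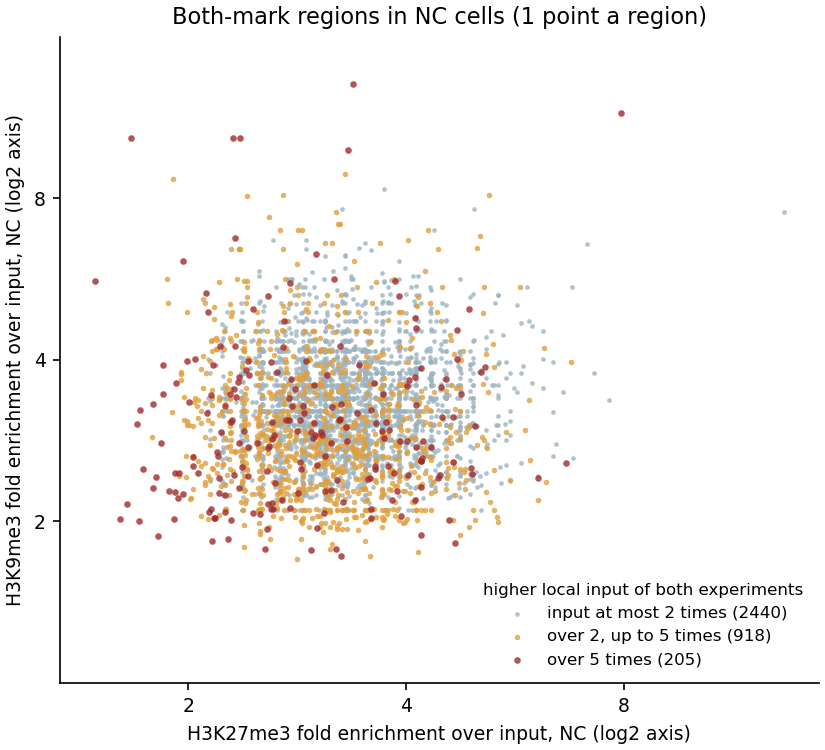
H3K27me3 (x axis) and H3K9me3 (y axis) fold enrichment over input of each both-mark region in NC cells, both on log2 axes, with 1 point a region coloured by the higher local input of both experiments (2440, 918 and 205 regions in the classes). The points form 1 cloud around 3.2 on both axes with no slope, and the region at 13.3 on the x axis is the one near the start of chromosome 7.

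The 3 lowest members were covered over 50% of their length, with H3K27me3 fold enrichments of 3.78 near S100A7A, 3.47 far from PKP2 and 2.93 in an intron of PPP2R2B. The 3 nearest peaks outside were covered over 49.99%, 49.93% and 49.92%, with 5.6 near ZNF558, 4.0 in an intron of PTPRN2 and 2.87 at LINC02755.

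The members were spread unevenly over the chromosomes. Chromosome 19, rich in zinc finger and other clustered gene families, had 222 regions, which were 12.2% of its H3K27me3 peaks and 3.75 regions per Mb. The next shares were 9.09% on chromosome 21, 8.98% on chromosome 4 and 8.76% on chromosome 7, and the lowest was 2.56% on chromosome 13, with 8 regions. Chromosome 5 held the most regions, 491, but these were only 4.32% of its 11364 H3K27me3 peaks. The intervals of chromosomes 4, 7 and 21 overlap one another, and the interval of chromosome 19 overlaps that of chromosome 21 alone.

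**Figure D2:**
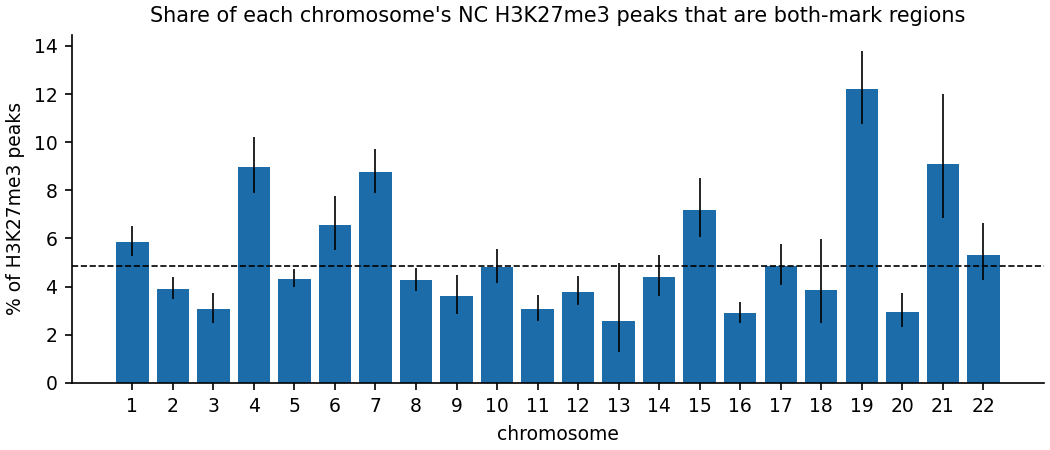
Percent of the NC H3K27me3 peaks of each autosome that were both-mark regions, with Wilson 95% intervals over peaks and the share over all autosomes (4.84%) as a dashed line. Chromosome 19 stands highest at 12.2% and chromosome 13 lowest at 2.56%.

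About as many regions lay outside genes as within them or at their starts. The H3K27me3 summit was intergenic in 50.1% of the regions (48.5 to 51.7%), in an intron in 39.7%, within 1 kb of a start site in 7.16% and in an exon in 3.06%. The other autosomal H3K27me3 peaks were intergenic in 42.9% and intronic in 48.4%, and the other autosomal H3K9me3 peaks in 42.3% and 48.9%, so the members were more often intergenic than either. Regions within 2 Mb of a centromere gap made up 8.93% (8.03 to 9.91%, SE 2.26 from leaving out each chromosome in turn), against 1.99% and 5.01% in the other peaks of H3K27me3 and of H3K9me3. Regions within 500 kb of a chromosome end made up 1.60%, against 0.438% and 1.84%.

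In base composition the members resembled H3K9me3 peaks. Their median GC content was 48.1%, compared with 45.0% in the other H3K27me3 peaks and 47.4% in the other H3K9me3 peaks, and the median CpG observed over expected was 0.241, 0.190 and 0.211 in the same order. The median 31-base word of a region occurred at least 2 times in the genome in 38.8% of the members (37.2 to 40.4%), in 10.1% of the other H3K27me3 peaks and in 38.5% of the other H3K9me3 peaks. With at least 10 copies the shares were 19.6%, 4.57% and 24.0%. Tandem copies of the satellite pentamer GGAAT were found at 3 members, or 0.0842%, close to 0.0827% of the other H3K27me3 peaks. Within 50 kb of a member lay a median of 18 other H3K27me3 peaks and 6 other H3K9me3 peaks, and within 50 kb of another H3K27me3 peak a median of 23 and 3.

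The members often came in runs. When regions within 50 kb of each other were joined, they formed 1807 blocks. Of these, 1165 held a single region, and 34 blocks of at least 10 regions held 554 regions, 15.5% of all. The other H3K27me3 peaks were not joined into blocks. They had a median of 23 other H3K27me3 peaks within 50 kb, against 18 around members, so lying close together was not particular to the members. The block with the most lay beside the centromere gap of chromosome 7 (chr7:61098032-61241605), with 58 regions over 144 kb, no annotated gene and a median of 46.5 genomic copies of its words. Its median fold enrichment was 2.92 for H3K27me3 and 5.57 for H3K9me3, and it stood at 3.73 times the genome-wide input in the first experiment and 1.00 times in the second. H3K27me3 peaks overlapped 23 of its regions in ΔLINC00641 and 42 in ΔSETD5-AS1, and H3K9me3 peaks 51 in ΔLINC00662. Such counts of this and the following blocks are read beside 57.8%, 61.0% and 50.4% of all regions in the same order.

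The next blocks were arrays of near-identical genes. On chromosome 8 (chr8:86726523-86840866) 42 regions covered an array of REXO1L pseudogenes, copies related to an RNA exonuclease gene, with median inputs of 13.6 and 11.6 times in the experiments for H3K27me3 and H3K9me3. In that array 42 regions kept H3K27me3 in each knockdown and 41 kept H3K9me3. On chromosome 4 (chr4:9215224-9274334) 30 regions covered 11 genes of the USP17L family, deubiquitinases encoded in a long tandem array, with inputs of 6.92 and 8.66 times and 23 copies of the median word. H3K27me3 was kept at 23 and 24 of them and H3K9me3 at 30. Reads from such copies cannot be assigned to a single gene, so values for one array gene stand for the array.

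A further 3 blocks on chromosome 19, named after their values were seen, lay over gene clusters with input near the genome-wide level. A stretch of 323 kb with 27 regions (chr19:56243719-56566793) held RFPL4A and the genes NLRP9, NLRP11, NLRP4, NLRP13, NLRP8 and NLRP5, which belong to a family active in oocytes and early embryos. Its median input was 1.17 and 1.19 times, with median fold enrichments of 3.71 for H3K27me3 and 3.28 for H3K9me3. H3K27me3 was kept at 19 regions in ΔLINC00641 and 16 in ΔSETD5-AS1, and H3K9me3 at 9 in ΔLINC00662. The block with USP29, ZIM3 and DUXA had 17 regions, of which 13 and 9 kept H3K27me3 and 14 kept H3K9me3. USP29 and ZIM3 belong to the imprinted PEG3 neighbourhood, and DUXA encodes a homeodomain protein of the early embryo.

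The third of these blocks held the primate miRNA cluster of chromosome 19, which is transcribed mainly in placenta. The cluster, with 45 annotated miRNA genes over 94.5 kb (chr19:54169927-54264476), overlapped 46 H3K27me3 peaks and 39 H3K9me3 peaks, and 18 of the former were both-mark regions. H3K27me3 peaks covered 33.8%, 32.5% and 28.6% of the cluster in NC, ΔLINC00641 and ΔSETD5-AS1, and H3K9me3 peaks 26.3% in NC and 24.1% in ΔLINC00662. At its 18 regions H3K27me3 fold enrichment ran from 2.37 to 4.66 (median 3.27) and H3K9me3 from 2.21 to 4.53 (median 2.86). Of these, 11, 12 and 10 regions had a peak in ΔLINC00641, ΔSETD5-AS1 and ΔLINC00662. These counts lay near the shares of all regions, 57.8%, 61.0% and 50.4%. The hairpins of 3 miRNA genes, MIR517B, MIR519D and MIR520F, overlapped a both-mark region. Their 3′ mature products are shown to identify the genes, from RefSeq, with the seed (bases 2 to 8) in capitals.
hsa-miR-517b-3p: aUCGUGCAucccuuuagagugu
hsa-miR-519d-3p: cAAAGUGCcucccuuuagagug
hsa-miR-520f-3p: aAGUGCUUccuuuuagaggguu
The seeds of these 3 products differed. The region at MIR517B (chr19:54223645-54224601) had an NC fold enrichment of 3.71 for both marks and that at MIR520F (chr19:54184609-54186628) 4.66 for H3K27me3 and 2.58 for H3K9me3, and both had peaks in all 3 knockdown lists. The region at MIR519D (chr19:54216477-54217251), with 2.90 and 2.94, had a peak in ΔLINC00641 and in ΔLINC00662 but not in ΔSETD5-AS1.

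**Figure D3:**
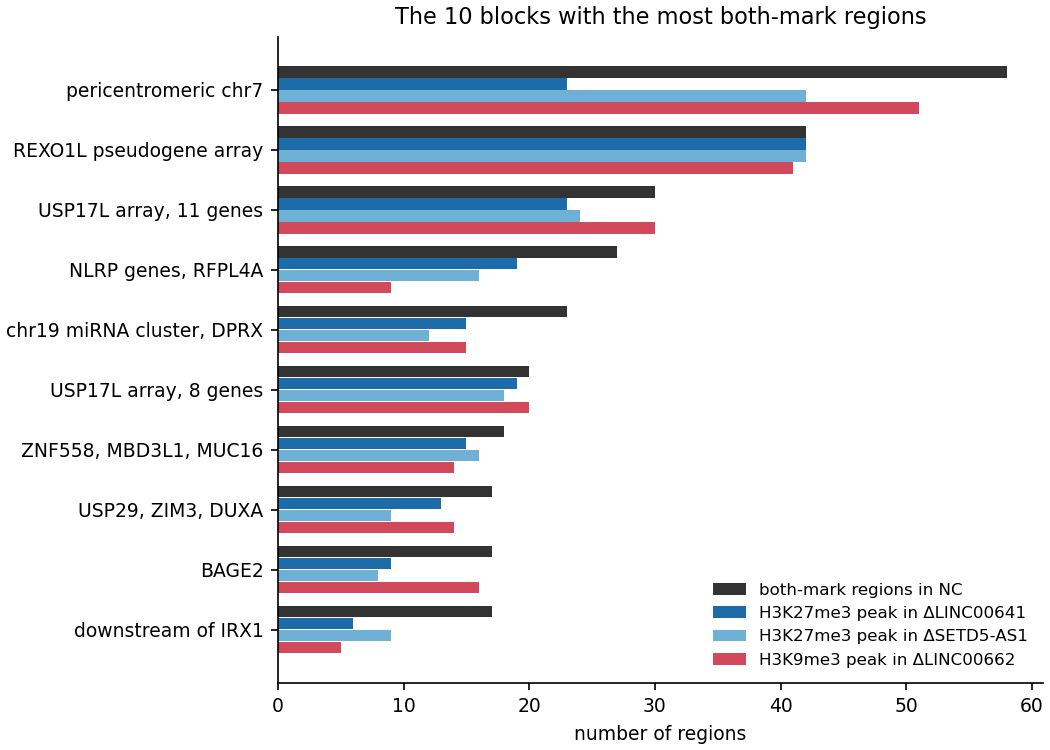
Number of both-mark regions in each of the 10 blocks with the most (black) and, of these, the number with an H3K27me3 peak in ΔLINC00641 or ΔSETD5-AS1 and with an H3K9me3 peak in ΔLINC00662. The REXO1L and USP17L arrays kept nearly all H3K9me3, whereas the NLRP block kept it at 9 of 27 regions.

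Protein-coding gene bodies were met by 26% of the regions, compared with 33.6% of the other H3K27me3 peaks. They belonged to 408 genes, of which 227 had a single region. DPP6, an auxiliary subunit of A-type potassium channels, had 37 regions among its 463 H3K27me3 and 203 H3K9me3 peaks, and PTPRN2, a phosphatase-like protein of secretory vesicles, 26 among 156 and 165. AGBL1 had 17 among 188 H3K27me3 peaks, the adhesion molecule OPCML 15 among 401 and the membrane protein TMEM132D 15 among 301. The acid-sensing channel ASIC2 had 14 among 382 and DPP10 14 among 423. AGBL4 had 13 among 212, CSMD2 13 among 177 and FBXL7 11 among 160. Beside 4.84% of all autosomal H3K27me3 peaks, OPCML, ASIC2 and DPP10 stood lower, TMEM132D near it and the other named genes higher. H3K27me3 peaks covered 52.0% of DPP6, 44.4% and 46.1% in NC, ΔLINC00641 and ΔSETD5-AS1, and H3K9me3 peaks 10.1% in NC and 8.94% in ΔLINC00662. At its 37 regions the H3K27me3 fold enrichment ran from 2.13 to 5.68 and the local input from 1.00 to 2.02 times the genome-wide level. H3K27me3 was kept at 29 of them in ΔLINC00641 and at 27 in ΔSETD5-AS1, and H3K9me3 at 23 in ΔLINC00662. TMEM132D kept H3K27me3 at 11 and 8 of its 15 regions but H3K9me3 at 1, and OPCML at 12 and 9 of 15 but H3K9me3 at 3. H3K9me3 was kept at 18 of 26 regions in PTPRN2, 6 of 17 in AGBL1 and 7 of 14 in ASIC2. DPP10 kept it at 3 of 14, AGBL4 at 6 of 13, CSMD2 at 7 of 13 and FBXL7 at 6 of 11. Over all regions the shares kept were 57.8%, 61.0% and 50.4% in ΔLINC00641, ΔSETD5-AS1 and ΔLINC00662.

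The LPA gene held the longest region. LPA encodes apolipoprotein(a), whose kringle IV domain is repeated many times. Its longest region (chr6:161033611-161052162) measured 18552 bp, with H3K27me3 fold enrichments of 4.88, 4.54 and 5.51 in NC, ΔLINC00641 and ΔSETD5-AS1 and H3K9me3 fold enrichments of 4.98 in NC and 3.76 in ΔLINC00662. A second one of 8404 bp (chr6:161055498-161063901) had 3.85, 4.90 and 3.77 for H3K27me3 and 5.6 and 3.31 for H3K9me3. Both stood at 6.39 and 7.35 times the genome-wide input in the H3K27me3 experiment. The other long regions were 8789 bp at REXO1L1, 6829 bp in the same array, and 8385 bp in an intergenic stretch of chromosome 7 (chr7:152789643-152798027) with input of 1.10 times and H3K27me3 fold enrichments of 7.62, 5.34 and 4.95.

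Start sites of 85 protein-coding genes had a both-mark region within 1 kb, against 1562 genes with any H3K27me3 peak there. Among the 20 genes with the highest such region, 12 were USP17L genes, with H3K27me3 fold enrichments of 2.25 to 4.02, H3K9me3 fold enrichments of 2.04 to 4.25 and inputs from 4.26 to 21.9 times the genome-wide level, and 12 of 12 kept both marks in every list. REXO1L1 and PRAMEF6, a member of the PRAME family of tumour antigens, are multicopy genes as well. Of the remaining 6, the genes with input of at most 2 times in both experiments included RFPL4AL1, FPR1 and SPHKAP. RFPL4AL1 had H3K27me3 fold enrichments of 3.77, 6.27 and 5.15 in NC, ΔLINC00641 and ΔSETD5-AS1 and H3K9me3 fold enrichments of 4.19 in NC and 3.45 in ΔLINC00662. FPR1, a receptor for formylated peptides on neutrophils, had 4.26, 3.65 and 3.68 for H3K27me3 and 4.16 and 3.55 for H3K9me3. SPHKAP, an anchoring protein for protein kinase A, had 4.04, 5.26 and 3.65, and 3.85 and 3.75. The protocadherin gene PCDHGA5 had 4.31 for H3K27me3 in NC with no peak in either knockdown, and 4.94 and 3.36 for H3K9me3. PCDHB1, of a neighbouring protocadherin cluster, kept both marks, with 3.64, 3.83 and 4.58 for H3K27me3 and 2.78 and 3.78 for H3K9me3, and ENSG00000286098 on chromosome 19 kept only H3K9me3.

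Gene groups fixed by symbol met the members unevenly. C2H2 zinc finger genes, many of which are KRAB repressors of transposons, had 34 regions in 22 of 605 genes, 0.954% of all regions (0.684 to 1.33%), compared with 0.241% of the other H3K27me3 peaks and 4.59% of the other H3K9me3 peaks. The pseudogene ZNF702P had the most, 7. H3K27me3 was kept at 13 and 12 of the 34 in ΔLINC00641 and ΔSETD5-AS1, and H3K9me3 at 24 in ΔLINC00662. The clustered protocadherins, adhesion proteins that give neurons their identity, had 6 regions, which met 13 of 54 overlapping genes, with 3 regions in PCDHGA1. These were 0.168% of the regions, above 0.0200% of the other H3K27me3 peaks and near 0.161% of the other H3K9me3 peaks. All 6 kept H3K9me3 and 2 kept H3K27me3 in each knockdown. Neurotransmitter receptor and potassium channel genes had 36 regions in 16 of 123 genes, 1.01% of the regions against 2.04% of the other H3K27me3 peaks and 0.517% of the other H3K9me3 peaks. KCNN2, a calcium-activated potassium channel, had 6 of them. H3K27me3 was kept at 19 in ΔLINC00641 and 30 in ΔSETD5-AS1, and H3K9me3 at 17.

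The kept counts of these groups are read beside 57.8%, 61.0% and 50.4% of all regions in ΔLINC00641, ΔSETD5-AS1 and ΔLINC00662. Germline genes had 20 regions in 7 of 94 genes, with 5 in NLRP4, which were 0.561% of the regions against 0.157% of the other H3K27me3 and 0.220% of the other H3K9me3 peaks. They kept H3K27me3 at 12 and 8 and H3K9me3 at 7. Apart from PIWIL1, with 1 region, the 7 genes were the NLRP genes of the chromosome 19 block above. The values of this group thus largely describe that locus. Imprinted genes had 12 regions in 8 of 74 genes, with 3 in ZIM3, or 0.337% against 0.127% and 0.253% in the same order. They kept H3K27me3 at 7 and 5 and H3K9me3 at 6. Families of segmental duplications had 29 regions in 19 of 133 genes, with 3 in USP17L18. These were 0.814% of the regions, against 0.0114% of the other H3K27me3 peaks and 0.0737% of the other H3K9me3 peaks. They kept H3K27me3 at 23 and 21 and H3K9me3 at 28. Olfactory receptors had 14 regions in 14 of 402 genes, with 2 in OR9A4. These were 0.393% of the regions, against 0.409% of the other H3K27me3 peaks and 0.0918% of the other H3K9me3 peaks. They kept H3K27me3 at 9 and 9 and H3K9me3 at 6. Keratin genes had 3 regions, 2 of them in KRT6A, and the homeobox genes outside the HOX clusters had 1, at DPRX. No region met the 39 HOX genes or the 68 histone genes, where no H3K27me3 peak was listed in NC either.

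The fate of each mark was then read from the knockdown lists. A mark counted as kept where a knockdown peak of the same mark overlapped the region by at least 1 bp, and as lost otherwise. In ΔLINC00641, 2061 regions kept H3K27me3, or 57.8% (56.2 to 59.5%, SE 1.06 from leaving out each chromosome in turn), beside 51.6% of all autosomal NC H3K27me3 peaks. In ΔSETD5-AS1, 2173 regions kept it, or 61.0% (59.4 to 62.6%, SE 1.24), beside 55.0% of all autosomal NC H3K27me3 peaks. These comparisons share the NC list. In ΔLINC00662, 1796 regions had an H3K9me3 peak, or 50.4% (48.8 to 52.0%, SE 1.89), beside 9.61% of all autosomal NC H3K27me3 peaks, most of which had no H3K9me3 to lose. The matching figure for H3K9me3 is the share of NC H3K9me3 peaks that were kept in ΔLINC00662. It was 52.0% of the 3615 at both-mark regions (50.3 to 53.6%, SE 1.78), beside 38.0% of all autosomal NC H3K9me3 peaks.

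Against the other peaks of the same mark, the both-mark regions kept H3K27me3 more often by 6.51 percentage points in ΔLINC00641 and by 6.34 in ΔSETD5-AS1. This difference moved with local input. Averaged within 10 groups of peaks ranked by input it was -1.52 and -0.714 points, an average over input classes in which the members stood above the other peaks and classes in which they stood below. Within 10 groups ranked by GC content it was 0.204 and 1.83 points. It was also small among strong peaks, with -1.24 and 0.960 points at −log10 q of at least 5. Within 10 groups ranked by −log10 q the difference was 4.87 and 4.85 points. It was larger within groups of like length, with 8.73 and 8.39 points, and of like neighbour number, with 9.90 and 9.74. Of the 20 chromosomes with at least 20 regions, the members stood higher on 16 in ΔLINC00641 and 15 in ΔSETD5-AS1.

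H3K9me3 differed more. The H3K9me3 peaks at both-mark regions were kept more often than the other H3K9me3 peaks by 14.7 points, and on 19 of 20 chromosomes, with a median over chromosomes of 15.1 points. The difference was 13.9 points within groups of like −log10 q, 13.7 within groups of like input and 12.6 within groups of like GC content, and 8.45 points within groups of like length. It varied with the number of copies of the median word in the reference genome. Where the median word occurred once in the genome, 45.3% of 2198 H3K9me3 peaks at both-mark regions were kept against 38.3% of the other H3K9me3 peaks, and with at least 10 copies 58.2% against 30.01%. In each of the 10 strength groups the H3K9me3 peaks at both-mark regions were kept more often, from 34.0% against 25.2% in the weakest to 92.2% against 73.2% in the strongest. Whether the second mark has a part in this was not tested, and ΔLINC00662 had no H3K27me3 list.

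**Figure D4:**
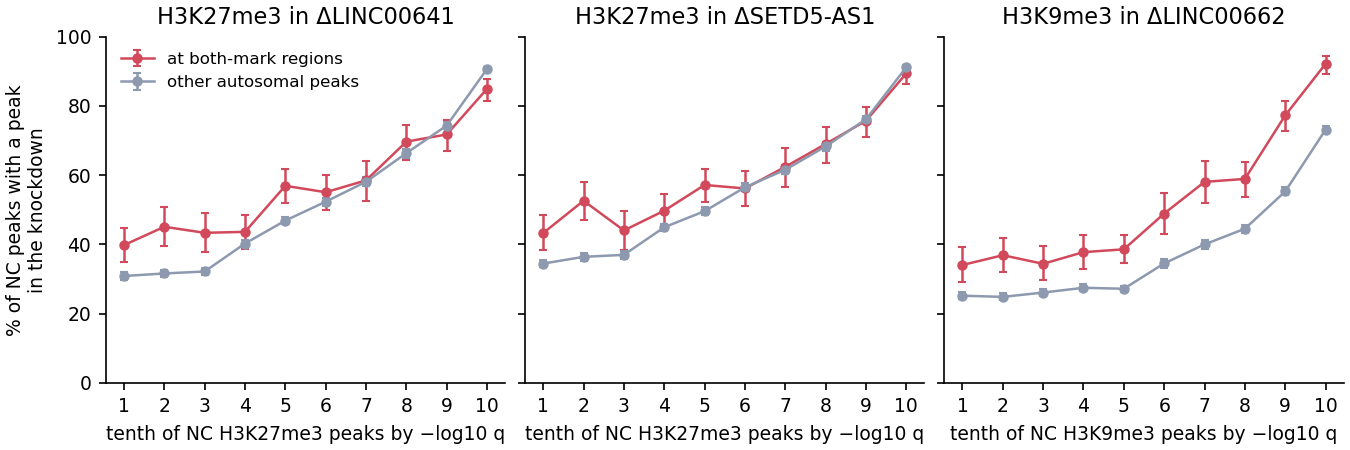
Percent of NC peaks that had a peak of the same mark in each knockdown, in 10 equal groups of the autosomal NC peaks ranked by −log10 q, for peaks at both-mark regions (red) and the other autosomal peaks of that mark (grey), with Wilson 95% intervals. For H3K27me3 the lines run close together in the stronger groups and the red line ends lower, at 85% against 90.7% in ΔLINC00641, while for H3K9me3 the red line lies above throughout and ends at 92.2% against 73.2%.

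The share kept was higher at higher local input for each mark. Where the H3K27me3 summit had input at the genome-wide level, 47.6% of the regions kept H3K27me3 in ΔLINC00641 against 37.8% of the other H3K27me3 peaks, and 47.6% against 42.2% in ΔSETD5-AS1. Above it and up to 2 times the members stood slightly lower, with 58.5% against 61.4% and 62.3% against 64.3%. Above 5 times, 84.4% of the regions against 84.0% of the other peaks kept it in ΔLINC00641, and 86.8% against 88.7% in ΔSETD5-AS1. For H3K9me3 the shares of the peaks at both-mark regions were 32.2% and 97% at the same levels, compared with 18.9% and 84.7% of the other H3K9me3 peaks. In the class of 2 to 5 times, the members kept H3K27me3 less often than the other H3K27me3 peaks, with 62.8% against 79.8% in ΔLINC00641 and 68.7% against 77.9% in ΔSETD5-AS1, but kept H3K9me3 more often than the other H3K9me3 peaks, with 79.1% against 59.9%.

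**Figure D5:**
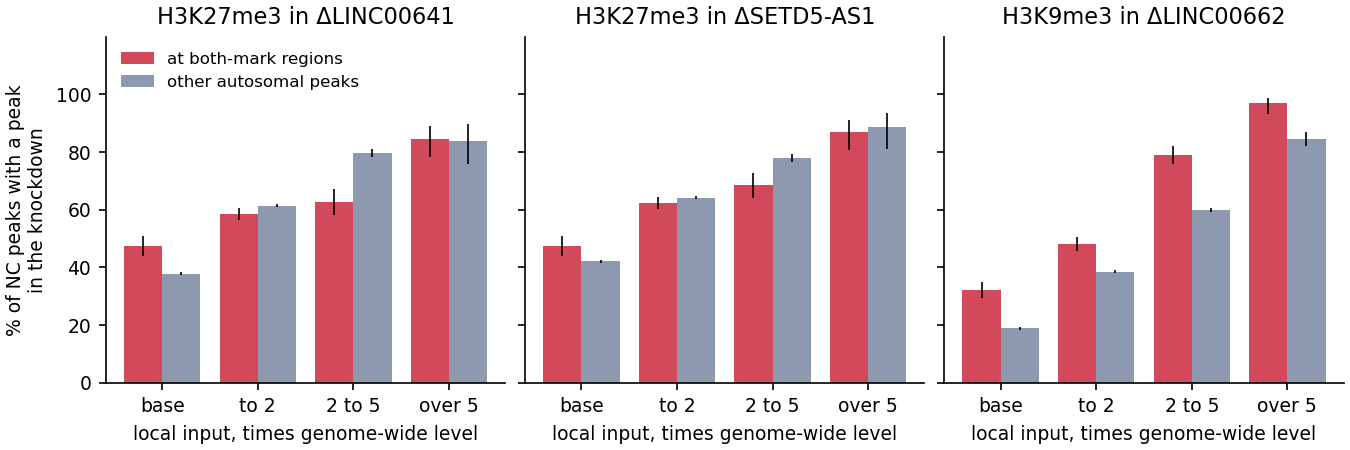
Percent of NC peaks with a peak of the same mark in each knockdown, by local input at the summit in multiples of the genome-wide level (base, up to 2, 2 to 5, over 5), for peaks at both-mark regions (red) and the other autosomal peaks of that mark (grey). Bars start at 0 and error bars are Wilson 95% intervals. Both sets reach over 80% in the highest class. The members stand above the other H3K27me3 peaks at the genome-wide level (47.6% against 37.8% in ΔLINC00641) and below them in the class of 2 to 5 times.

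Near centromere gaps H3K27me3 was kept less often and H3K9me3 more often than elsewhere. Within 2 Mb of a centromere gap, 318 regions kept H3K27me3 at 44% in ΔLINC00641 and 53.1% in ΔSETD5-AS1 but H3K9me3 at 76.4% in ΔLINC00662, while farther away the shares were 59.2%, 61.8% and 47.9%. The other peaks differed in the same directions, with 33.6% and 35.7% of the other H3K27me3 peaks kept near gaps against 51.7% and 55.0% farther away, and 51.5% of the other H3K9me3 peaks against 36.5%. Regions whose median word occurred once in the genome kept H3K27me3 at 61.3% and 63.0% and H3K9me3 at 43.1%. With at least 10 copies the shares were 48.6%, 58.2% and 59.3%. Exonic regions had the lowest H3K9me3 share of the location classes, 40.4% of 109, and promoter regions the highest, 57.3% of 255. Among the other H3K9me3 peaks promoters were highest too, at 47.3%, while exons stood at 43.1% and introns were lowest at 36.3%. The 37 regions with a tandem repeat kept H3K27me3 at 94.6% in each knockdown and H3K9me3 at 81.1%, but their median −log10 q of 9.03 was also above the 3.73 of the rest.

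Where a peak was kept, its size was close to that in NC. At both-mark regions with a single partner in each direction, the median log2 ratio of fold enrichment, knockdown to NC, was 0.00 over 1593 pairs in ΔLINC00641 (quartiles -0.27 and 0.28) and -0.06 over 1661 pairs in ΔSETD5-AS1 (-0.33 and 0.22). The H3K9me3 peaks at both-mark regions had a median of 0.08 over 1625 pairs in ΔLINC00662 (-0.21 and 0.36). The other peaks had medians of 0.01, -0.08 and 0.02, so these medians lay far inside the quartiles of single pairs. The ratio describes pooled lists of different depth. Only peaks called in both lists enter it, so regions that fell below the calling threshold in a knockdown are left out. It therefore cannot show whether a mark fell over all members.

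Over the 3 knockdown lists, 886 regions (24.9%) had a peak of the mark in question in each list and 499 (14%) in none. H3K27me3 was lost in both knockdowns at 905 regions, 25.4%, beside 32.9% of all autosomal NC H3K27me3 peaks, and kept in both at 44.2%, beside 39.5%. Since both knockdowns are read against the same NC list, a peak called by chance in NC counts as lost in both. Regions with H3K27me3 in both knockdowns had an H3K9me3 peak in ΔLINC00662 at 56.2% (53.8 to 58.6%), and regions without it in either at 44.9% (41.7 to 48.1%). The regions with all 3 peaks were longer, with a median of 798 bp, and had a higher local input, 1.60 times, than those with none, with 381 bp and 1.07 times.

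The 5 highest regions with no peak in any knockdown list were short and stood mostly in repeated sequence. The highest, on chromosome 7 (chr7:64574702-64574972), had NC fold enrichments of 3.68 for H3K27me3 and 6.61 for H3K9me3 and an H3K27me3 input of 3.62 times. The next lay on chromosome 16 (chr16:33051490-33051866), with 5.12 and 5.48, and on chromosome 15 (chr15:20136327-20136708), with 4.19 and 4.53. The fourth lay in an intron of C6 (chr5:41204782-41205072), a gene of the terminal complement pathway, with 4.53 and 3.5, and the fifth 33.9 kb from the choline transporter gene SLC5A7 (chr2:108568742-108569109), with 4.53 and 5.06. The words of the last occurred once in the genome, and those of the other 4 regions 4.5 to 38 times. At the other end, the 10 highest regions of all had inputs of 13.2 to 27.6 times in the H3K27me3 experiment and 10.8 to 40.6 times in the H3K9me3 experiment. Of these 10, 8 were in or beside the REXO1L array of chromosome 8 and the other 2 in ENSG00000291225, and 10 kept both marks in every list.

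The same rule was applied to each pair of lists. With the NC H3K9me3 list, 3513 peaks of ΔLINC00641 met it, or 5.97% of its autosomal peaks, and 3988 of ΔSETD5-AS1, or 5.79%, beside 4.84% in NC. With the H3K9me3 list of ΔLINC00662 the numbers were 3241 for NC H3K27me3 (4.40%), 3306 for ΔLINC00641 (5.62%) and 3526 for ΔSETD5-AS1 (5.12%). The number of both-mark regions was thus alike in every pair. Of the NC regions, 43.1% and 44.4% were overlapped by a region that met the rule with an H3K27me3 knockdown list in place of NC, 37.1% with the H3K9me3 knockdown list in place of NC, and 21.6% and 22.3% with both lists replaced. In turn 43.9%, 40.3%, 40.8%, 23.5% and 23.1% of the regions of those pairs overlapped an NC region. These overlaps stand beside the turnover of the whole lists, in which 51.6% and 55.0% of all autosomal NC H3K27me3 peaks and 38.0% of all autosomal NC H3K9me3 peaks had a peak in the knockdown. With the NC H3K9me3 list, 69.1% of the both-mark regions of ΔLINC00641 and 65.4% of its other peaks overlapped any NC H3K27me3 peak, and 62.8% and 60.4% did in ΔSETD5-AS1.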

How the data were processed

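Per the study's methods and the submitters' processing notes, reads were trimmed (cutadapt 3.3), mapped to hg19 (Bowtie2 2.4.2) and stripped of duplicates (GATK), and narrow peaks were called by MACS2 2.2.7.1 after the authors had merged the replicates of each ChIP group and of its input. The authors deposited for each peak a fold enrichment, a linear ratio of fragments plus 1 over local input plus 1 at the summit, and the −log10 p-value and −log10 q-value. Reads were not counted again. The fragments and local input at each summit were recovered from the fold enrichment and the −log10 p, both of which the authors deposited. Within a tolerance of 0.01, over 99% of the peaks of each list gave whole fragments, with medians of 18 to 22 at the summit, so a single weak peak is imprecise. Local input was divided by the lowest value of its list, the genome-wide level.

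The both-mark rule, overlaps and shares were computed in Python (pandas, numpy, pysam). Genes came from GENCODE 44 on GRCh37, in whose chromosome lengths all peaks of chromosomes 1 to 22 and X lay. Promoters reached 1 kb either side of a start site. The copies of 50 words of 31 bases per region were counted in the genome. Wilson 95% intervals cover counting error only and take peaks as independent, which neighbours are not. The functions were tested on simulated data. The members and gene lists were chosen with earlier results of these data known. Named regions and genes were the 10 highest regions, the 20 start-site genes and 10 gene bodies with the highest or most regions, the 5 highest that lost both marks, the 5 longest, the 3 largest blocks, 3 either side of the threshold and 1 gene a group, ranked by the smaller −log10 q of both peaks. Others are said to be chosen after their values were seen.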

Additional observations from a re-analysis of the deposited data

Results flagged for a closer look

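Outside chromosomes 1 to 22, peaks that the comparisons did not use also met the both-mark rule. On chromosome X, 1215 of 28731 H3K27me3 peaks had at least 50% of their length under H3K9me3 peaks in NC, or 4.23% (Wilson 95% interval 4.0 to 4.47%), against 4.84% (4.68 to 4.99%) on chromosomes 1 to 22. On unplaced and alternative contigs 119 of 439 did, or 27.1% (23.2 to 31.5%).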

How the results depend on the processing

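The number of both-mark regions was 5525 with 25% of the peak covered, 2054 with 75%, 862 with 100%, 522 where each list held only peaks of −log10 q 5 or more and 1970 with peaks within 1 kb merged. Where knockdown peaks had to cover 50% of a region, 46.4% and 49.2% kept H3K27me3 in ΔLINC00641 and ΔSETD5-AS1 and 37.1% kept H3K9me3, and the differences from other peaks were 8.87, 9.51 and 12.4 points. With full coverage the shares were 46.2%, 51.4% and 64.0% and the differences -5.16, -3.25 and 31.7, so both H3K27me3 differences turned sign. The interval for ΔSETD5-AS1 ran from -6.61 to 0.103 and so included no difference. In this setting the other peaks were not matched for length, which full coverage can select on. At −log10 q of at least 5 the shares were 78%, 82.1% and 81.7% and the differences -1.24, 0.960 and 19.98. Without input over 5 times, 47.6% kept H3K9me3. The following settings were chosen after seeing the data. Without blocks of 10 or more regions the differences were 4.77, 4.34 and 10.9. They were 8.73, 8.39 and 8.45 within length groups, 0.204, 1.83 and 12.6 within GC groups, -1.52 and -0.714 for H3K27me3 within input groups, and 9.90, 9.74 and 11.4 within groups of like neighbour number. The cause was not tested. Over all settings 33 values moved past the interval or 1.5 times of the count, 5 turned sign and 17 did neither. The difference for H3K9me3 was positive in all of these settings. No paired analysis was possible because replicates were merged into 1 list a group. The depth of 18 to 22 fragments a summit limits the call of any single region, and no error between replicates can be had.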
